A study of Homo sapiens with 9 samples.

Results

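The AKR1 subfamily of aldo-keto reductases was followed in RNA sequencing libraries of Huh-7 cells and of 2 knockout lines made from them. Its 8 members were selected by gene symbol, as the entries for AKR1A1, AKR1B1, AKR1B10, AKR1C1, AKR1C2, AKR1C3, AKR1C4 and AKR1D1 among the 58735 genes of the deposited tables. The family was chosen on the measured differences between these groups, so the values of its members in the comparisons are given as a description, without p-values. Whether a member was called or passed an adjusted p is part of that description and is not a test of the member. Huh-7, a human hepatoma line, served as control and was labelled WT. Ako-3 is a single clone, selected by limiting dilution after Cas9 and guide RNAs against APOB had been delivered to Huh-7 cells. Mko-3 is a single MTTP knockout line, made earlier from the same parent. All 3 groups were grown in DMEM with fetal bovine serum and, at 80-90% confluence, kept overnight without serum. Each group had 3 libraries, called biological replicates in the labels, made from poly-A RNA, and the control libraries served both knockouts. As each knockout is represented by 1 line, a difference of that line and a difference made by the knockout cannot be told apart.

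Aldo-keto reductases use NADPH to turn aldehyde and ketone groups into alcohols. AKR1A1 and the AKR1B enzymes act mainly on aldehydes and sugars, the AKR1C enzymes are hydroxysteroid dehydrogenases that switch steroid hormones between active and inactive forms, and AKR1D1 reduces the ring double bond of steroids and bile acid precursors. The liver is the main site of AKR1C4 and AKR1D1, and both act in bile acid synthesis.

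The total counts ranged from 14638727 to 20179760 per library. APOB, the gene targeted in Ako-3, had 2688, 3513 and 3878 CPM (read counts scaled to library size, with TMM factors over the 9 libraries) in control, 1422, 1260 and 1268 in Ako-3, and 3119, 3412 and 3254 in Mko-3 libraries. MTTP, the gene targeted in Mko-3, had 636, 604 and 664 CPM in control, 601, 577 and 542 in Ako-3, and 87.4, 90.8 and 83.0 in Mko-3 libraries. Both targeted genes were thus lowest in the line made to lack them, without an overlap. The 10 hepatocyte markers (ALB, APOA1, APOA2, APOH, TTR, SERPINA1, AFP, FGB, TF and HNF4A) were at 1 CPM or more in every library, and summed to 18462 to 18958 CPM in control, 22345 to 23483 in Ako-3 and 18477 to 19375 in Mko-3. Of 8 markers of fibroblasts, endothelial and immune cells, 4 (PDGFRB, PECAM1, CDH5 and CD14) were at 1 CPM or more in every library, while CD68 was at 0 throughout and PTPRC had at most 2 counts and VWF at most 5. Those 8 summed to 84.8 to 96.9 CPM in control, 123 to 129 in Ako-3 and 66.4 to 69.8 in Mko-3, mostly from PECAM1. This order of the groups is that of PECAM1 (means of 77.7, 105.8 and 51.2 CPM in control, Ako-3 and Mko-3) and PDGFRB (3.55, 4.94 and 2.97). CDH5 had the opposite order (5.16, 4.23 and 6.50), and CD14 was lowest in control (5.95, 10.5 and 7.38). The order of the sum is also that of AKR1C2 described further on, and the part of these markers in the AKR1 values was not tested. In bulk RNA, fewer cells with a transcript and less of it per cell cannot be told apart.

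AKR1C1 (ENSG00000187134), AKR1C2 (ENSG00000151632), AKR1C3 (ENSG00000196139) and AKR1C4 (ENSG00000198610) lie side by side on chromosome 10, from 4963253 to 5218949 on hg38, with AKR1C2 on the minus strand and the others on the plus strand. AKR1D1 (ENSG00000122787) and the pair AKR1B1 (ENSG00000085662) and AKR1B10 (ENSG00000198074) lie on chromosome 7, and AKR1A1 (ENSG00000117448) on chromosome 1. In the GENCODE 44 annotation the main transcript of each AKR1C gene has 9 exons and 969 coding bases. The coding sequences of AKR1C1 and AKR1C2 are 98.0% identical, differing at 19 positions, with a longest shared run of 186 bases. AKR1C3 is 91.4% and AKR1C4 88.8% identical to AKR1C1, whereas AKR1B1 and AKR1B10 share 76.2%. The stretch of 60 coding bases with the most differences between AKR1C1 and AKR1C2 is shown because the 2 genes moved apart in Ako-3 cells and reads can be assigned to one or the other where they differ. It covers coding bases 103 to 162 in exon 2, at chr10:4965932-4965991 (plus strand) in AKR1C1 and at chr10:5001604-5001663 (minus strand) in AKR1C2 (hg38), and the 10 differing bases are in capitals.
AKR1C1: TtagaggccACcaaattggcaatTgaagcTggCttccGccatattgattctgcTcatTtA
AKR1C2: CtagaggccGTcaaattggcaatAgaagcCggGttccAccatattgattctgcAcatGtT

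Sequencing reads were 150 bases long. Of all 150-base windows of the main transcript, 7.91% in AKR1C1, 17.2% in AKR1C2 and 2.12% in AKR1C3 also occur unchanged in a transcript of another AKR1 gene, and none do in AKR1A1, AKR1B1, AKR1B10, AKR1C4 and AKR1D1. How reads with several equal matches were counted is not given in the sources used here, so the values of AKR1C1, AKR1C2 and AKR1C3 are uncertain. The percentages do not bound this uncertainty, as they count only exact matches of windows of the main transcripts. The sum of these genes with AKR1C4 is therefore given as well. AKR1C2 also overlaps the antisense gene AL391427.1, which had at most 2 counts in any library. The 13 AKR1 pseudogenes in the tables had at most 5 counts.

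The sequence before the start of transcription is shown for AKR1C1 and AKR1C2, the pair that moved apart, and for AKR1C4 and AKR1D1, the members that act in bile acid synthesis. It was taken from RefSeq (GRCh38.p14) as the 250 bases before 1 annotated start, read on the strand of the gene. Capitals mark matches, on either strand, to 6 motifs that were picked after the sequences had been seen. These are the TATA box TATAAA, the CCAAT box CCAAT, the core of the antioxidant response element TGACNNNGC, the HNF1 half-site GTTAAT, the HNF4 site CAAAGTCCA and the forkhead site TGTTTAC, of which no 2 share letters in the marked places. The windows are chr10:4963165-4963414 (plus strand) for AKR1C1, chr10:5003858-5004107 (minus strand) for AKR1C2, chr10:5196587-5196836 (plus strand) for AKR1C4 and chr7:138076209-138076458 (plus strand) for AKR1D1.
AKR1C1: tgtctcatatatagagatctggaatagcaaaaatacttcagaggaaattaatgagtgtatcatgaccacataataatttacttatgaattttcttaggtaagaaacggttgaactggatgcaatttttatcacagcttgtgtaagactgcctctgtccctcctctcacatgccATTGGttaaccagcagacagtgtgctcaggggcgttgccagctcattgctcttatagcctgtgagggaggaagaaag
AKR1C2: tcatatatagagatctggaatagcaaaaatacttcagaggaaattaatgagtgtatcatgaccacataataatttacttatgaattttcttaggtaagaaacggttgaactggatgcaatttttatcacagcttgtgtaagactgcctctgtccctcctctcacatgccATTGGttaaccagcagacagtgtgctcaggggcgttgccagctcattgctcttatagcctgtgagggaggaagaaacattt
AKR1C4: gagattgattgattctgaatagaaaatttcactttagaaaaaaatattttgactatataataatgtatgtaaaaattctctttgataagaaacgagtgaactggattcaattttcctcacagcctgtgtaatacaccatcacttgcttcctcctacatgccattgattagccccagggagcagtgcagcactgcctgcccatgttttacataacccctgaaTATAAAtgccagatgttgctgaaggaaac
AKR1D1: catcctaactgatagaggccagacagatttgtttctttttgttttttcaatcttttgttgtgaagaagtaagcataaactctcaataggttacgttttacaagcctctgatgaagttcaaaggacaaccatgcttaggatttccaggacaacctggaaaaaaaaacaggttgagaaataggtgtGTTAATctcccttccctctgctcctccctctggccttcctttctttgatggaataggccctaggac

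The windows of AKR1C1 and AKR1C2 align over 246 bases, of which 245 are identical. AKR1C4 shares 63.6% of the aligned bases with AKR1C1. In the windows of AKR1C1, AKR1C2 and AKR1C3 a CCAAT match lies on the opposite strand, 77, 81 and 86 bases before the start, and AKR1B1 has one 98 bases before its start. AKR1C4 holds TATAAA 29 bases before the start and AKR1D1 holds GTTAAT 66 bases before it. Of 35116 promoter windows of this length, 10.7% hold TATAAA, 32.0% CCAAT, 10.9% TGACNNNGC, 6.23% GTTAAT, 0.325% CAAAGTCCA and 2.98% TGTTTAC. The last 2 and TGACNNNGC had no match in the 7 members with a window, and AKR1B10 had no window in the table.

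Per length, on the deposited FPKM scale, AKR1A1 had the highest level of the family in every group. Its mean FPKM was 58.9 ± 4.90 (SD, n = 3) in control cells, above 96.0% of the 16105 genes tested in any comparison. AKR1C1 followed in control cells at 6.65 ± 0.306 FPKM and AKR1C2 at 4.89 ± 0.644, above 62.6% and 54.7% of those genes. AKR1D1 was at 1.10 ± 0.187, and AKR1C3, AKR1C4, AKR1B1 and AKR1B10 were all under 1 FPKM in control cells. The members therefore differ widely in the depth behind their values, from 1726 to 3786 counts per library for AKR1A1 to 3 or fewer for AKR1B10.

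AKR1A1, the aldehyde reductase found in nearly all tissues, was lower in both knockout lines than in control cells. It had 204, 175 and 179 CPM in control, 106, 118 and 110.0 in Ako-3, and 111, 107 and 114 in Mko-3 libraries. All control libraries lay above all libraries of both knockout lines, and the knockout lines overlapped. The log2 fold change was -0.75 ± 0.07 (SE) in Ako-3 and -0.76 ± 0.07 in Mko-3 against control, or 1.68 and 1.69 times lower. These changes passed an adjusted p of 0.05 but not the fold of 2 required for a call. Between the knockout lines the log2 difference was -0.01 ± 0.05.

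AKR1B1, the aldose reductase that starts the polyol pathway by turning glucose into sorbitol, was weakly expressed and higher in both knockout lines. Its levels were 0.646, 0.397 and 0.389 CPM in control, 0.673, 1.38 and 1.62 in Ako-3, and 2.72, 2.29 and 2.48 in Mko-3 libraries. Behind these stand 6 to 12 counts per library of control, 11 to 28 of Ako-3 and 38 to 48 of Mko-3. The 3 groups did not overlap, though the lowest Ako-3 library lay close to the highest control library. The log2 fold change against control was 1.33 ± 0.43 in Ako-3 and 2.35 ± 0.34 in Mko-3, and Mko-3 was higher than Ako-3 by 1.01 ± 0.29. The call in Ako-3 was lost without Ako-3 replicate 2 (log2 fold change 1.25), without Ako-3 replicate 3 (1.10) and without control replicate 3 (1.20). The call between the knockout lines was lost without Ako-3 replicate 1 (0.74) and without Mko-3 replicate 1 (0.94). In Mko-3 against control the difference was 2.21 to 2.64 over the fits that left out 1 library. AKR1B1 passed the filter on low counts only through the knockout line, where it is high, in both comparisons with control.

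AKR1B10, a reductase of retinal and other aldehydes known from the intestine and from liver tumours, was at or under the floor of 3 counts in all 9 libraries. It had 2, 2 and 0 counts in control, 0, 0 and 1 in Ako-3, and 3, 0 and 1 in Mko-3 libraries. It was not tested, and no fold change is given. A floor of 3 counts stood for 0.153 to 0.198 CPM, depending on the library.

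**Figure D1:**
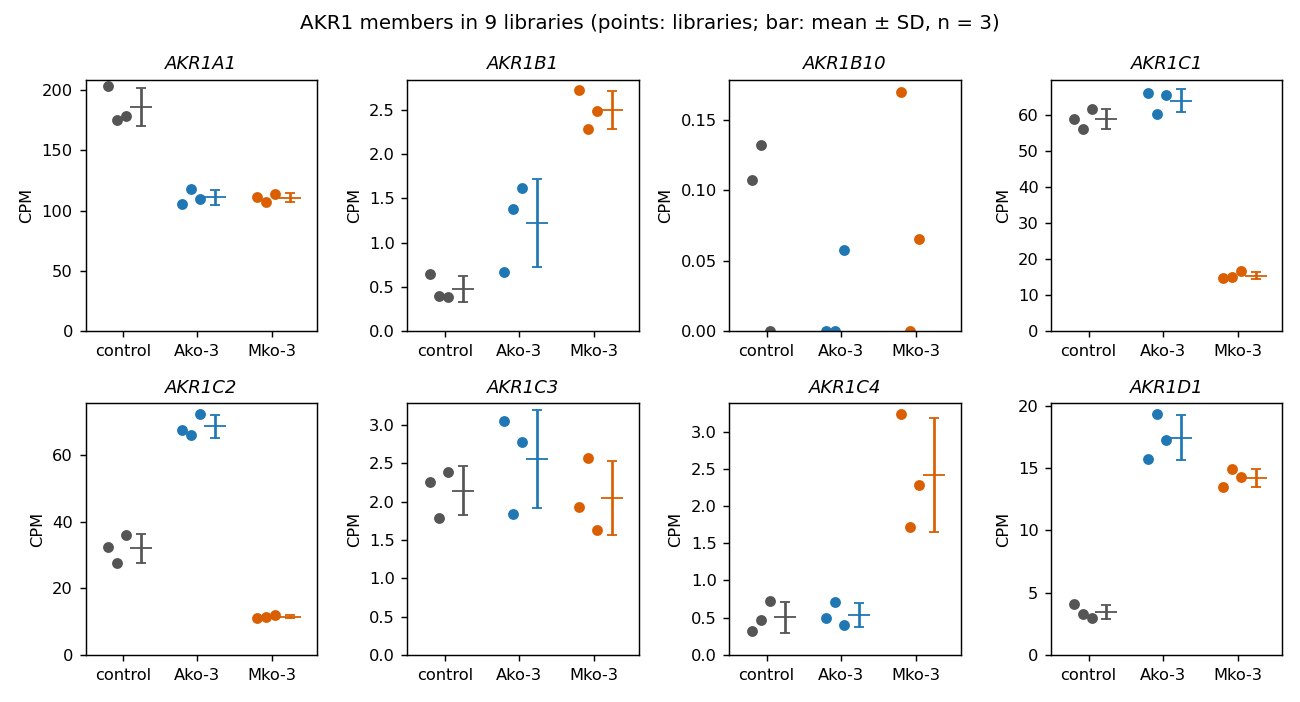
Levels of the 8 AKR1 members in CPM (vertical axes, linear and starting at 0, with a scale for each gene) in control, Ako-3 and Mko-3 libraries. Points are libraries, and the bars beside them give the mean ± SD of 3 libraries, left out for AKR1B10 at 3 or fewer counts. AKR1C2 is highest in Ako-3 and lowest in Mko-3, AKR1C1 is low in Mko-3 alone, AKR1C4 is high in Mko-3 alone, and AKR1D1 is high in both knockout lines.

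AKR1C1 and AKR1C2, whose coding sequences are near-identical, did not move together in Ako-3 cells and both fell in Mko-3 cells. AKR1C1, which inactivates progesterone, had 58.9, 56.2 and 61.8 CPM in control, 66.1, 60.3 and 65.6 in Ako-3, and 14.7, 14.98 and 16.7 in Mko-3 libraries. The Ako-3 and control libraries overlapped, and the Mko-3 libraries lay far below both. The log2 fold change of AKR1C1 was 0.11 ± 0.07 in Ako-3 and -1.95 ± 0.09 in Mko-3 against control, the latter 3.85 times lower.

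AKR1C2, which inactivates the androgen dihydrotestosterone, had 32.2, 27.6 and 36.1 CPM in control, 67.3, 65.9 and 72.4 in Ako-3, and 11.2, 11.3 and 11.96 in Mko-3 libraries. The 3 groups were separate, with Ako-3 above and Mko-3 below control. In Ako-3, AKR1C2 rose by 1.09 ± 0.09 on the log2 scale, or 2.13 times, and it fell by 1.49 ± 0.11 on the log2 scale in Mko-3, 2.82 times lower. The rise in Ako-3 lies near the threshold of a call, and without control replicate 2 it was 0.998, under that threshold. Between the knockout lines, AKR1C1 was 4.15 times and AKR1C2 5.99 times lower in Mko-3 than in Ako-3, at log2 fold changes of -2.05 ± 0.08 and -2.58 ± 0.08. Just inside the fold required for a call lay AKR1C2 in Ako-3 against control and AKR1B1 (1.01) between the knockout lines, and nearest outside it lay AKR1A1 (-0.75 and -0.76).

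The ratio of AKR1C2 to AKR1C1 per length, taken within each library on the FPKM scale, was 0.743, 0.666 and 0.792 in control, 1.38, 1.48 and 1.497 in Ako-3, and 1.03, 1.02 and 0.974 in Mko-3 libraries. By the deposited lengths of 8765 bases for AKR1C1 and 6461 for AKR1C2, AKR1C1 was thus the higher of the 2 in every control library. On the same lengths AKR1C2 was the higher in every Ako-3 library, and in Mko-3 the 2 genes were nearly equal. The means were 0.733 ± 0.0636, 1.45 ± 0.0624 and 1.01 ± 0.0308 (SD, n = 3). A ratio within a library does not depend on how the libraries were scaled against each other. It does depend on the gene lengths used, and the main transcripts have 6543 bases in AKR1C1 and 3215 in AKR1C2. Other lengths would multiply the ratios of all libraries by the same factor. The order of the groups would stay, but which gene is the higher could change.

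AKR1C3, which makes testosterone and prostaglandin F, was weakly expressed and overlapped between all 3 groups. It had 2.26, 1.78 and 2.39 CPM in control, 3.06, 1.84 and 2.78 in Ako-3, and 1.93, 2.57 and 1.63 in Mko-3 libraries, on 25 to 50 counts. AKR1C3 differed by log2 0.23 ± 0.26 in Ako-3 and -0.08 ± 0.27 in Mko-3 against control and -0.30 ± 0.25 between the knockout lines, none of them past an adjusted p of 0.05.

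AKR1C4, the liver member of the group, which reduces bile acid precursors after AKR1D1, was higher in Mko-3 cells, opposite to AKR1C1 and AKR1C2. It had 0.323, 0.463 and 0.723 CPM in control, 0.489, 0.714 and 0.406 in Ako-3, and 3.23, 1.72 and 2.29 in Mko-3 libraries. These levels rest on 6 to 14 counts in control and Ako-3 libraries and on 57, 30 and 35 counts in Mko-3 libraries. All Mko-3 libraries lay above all others, and control and Ako-3 overlapped. AKR1C4 in Mko-3 differed by log2 2.24 ± 0.38 against control and 2.14 ± 0.35 against Ako-3, or 4.71 and 4.40 times higher. AKR1C4 passed the filter on low counts only through its Mko-3 libraries, and it was not tested in Ako-3 against control.

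Summed over AKR1C1 to AKR1C4, the level was 93.7, 86.0 and 101 CPM in control, 137, 129 and 141 in Ako-3, and 31.0, 30.5 and 32.5 in Mko-3 libraries. This sum does not depend on how counted reads were split among the 4 genes, though reads left uncounted for having several matches would be missing from it. Its groups did not overlap. The log2 fold change of the sum was 0.53 ± 0.07 in Ako-3 and -1.59 ± 0.08 in Mko-3 against control, and -2.11 ± 0.06 between the knockout lines.

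AKR1D1, which saturates the ring double bond on the way to the bile acids, was higher in both knockout lines. It had 4.09, 3.30 and 2.95 CPM in control, 15.7, 19.4 and 17.3 in Ako-3, and 13.5, 14.9 and 14.3 in Mko-3 libraries. All libraries of both knockout lines lay above all control libraries, and all Mko-3 libraries lay below all Ako-3 libraries. AKR1D1 was higher by log2 2.33 ± 0.15 in Ako-3 and 2.03 ± 0.15 in Mko-3, or 5.02 and 4.08 times higher. Between the knockout lines it was -0.30 ± 0.10, which passed an adjusted p of 0.05 but not the fold required for a call.

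For a call, a gene had to pass a log2 difference of 1 in either direction together with an adjusted p of 0.05 over all genes tested. In Ako-3 against control, 6 of the 8 members were tested, and 3 were called higher (AKR1B1, AKR1C2 and AKR1D1) and 0 lower, where 3.52% of all 15787 tested genes were called higher and 5.00% lower. In Mko-3 against control, 7 were tested, and 3 were called higher (AKR1B1, AKR1C4 and AKR1D1) and 2 lower (AKR1C1 and AKR1C2), where 3.82% of 15745 genes were called higher and 7.22% lower. In Mko-3 against Ako-3, 7 were tested, and 2 were called higher (AKR1B1 and AKR1C4) and 2 lower (AKR1C1 and AKR1C2), where 2.26% of 15528 genes were called higher and 3.47% lower. By the adjusted p alone, 4 of 6, 6 of 7 and 5 of 7 tested members passed, beside 49.9%, 54.0% and 41.6% of all genes. The family was chosen on these comparisons, so nothing is read from these counts. AKR1B1 and AKR1D1 were called higher in both knockout lines, which share the control libraries.

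**Figure D2:**
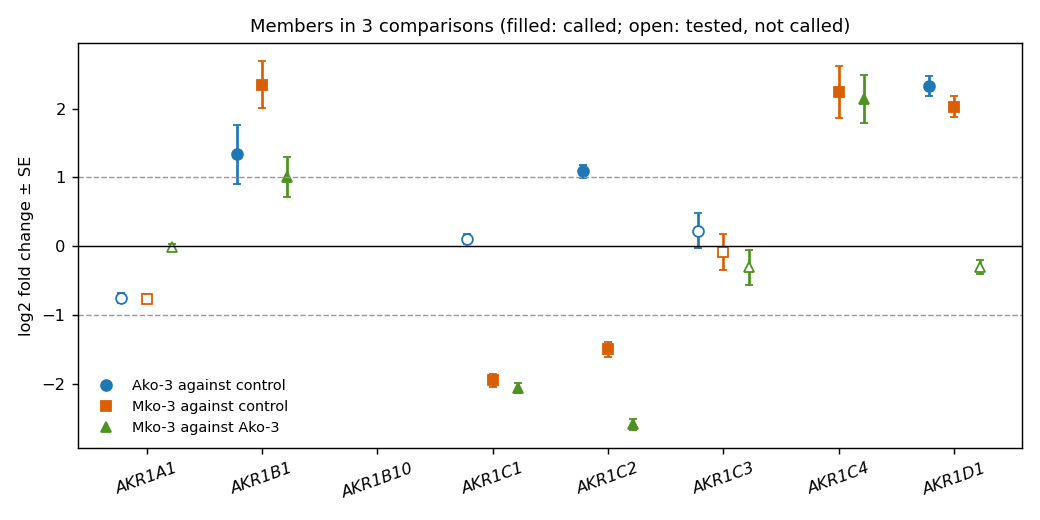
Log2 fold change (vertical axis) of each AKR1 member (horizontal axis) in Ako-3 against control, Mko-3 against control and Mko-3 against Ako-3, with bars for the SE of the fit over 6 libraries. Filled symbols are called, open symbols were tested and not called, and dashed lines mark -1 and 1. AKR1C2 lies at 1.09 in Ako-3 and at -1.49 in Mko-3 against control, while AKR1D1 lies above 2 in both.

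The make-up of the family, as each member's percent of the summed FPKM of the 8 genes, differed between the groups. AKR1A1 took 81.3% ± 1.42 (SD, n = 3) in control, 59.0% ± 1.47 in Ako-3 and 77.01% ± 0.388 in Mko-3. AKR1C1 to AKR1C4 together took 16.98% ± 1.67, 31.1% ± 2.13 and 11.4% ± 0.471. AKR1C2 alone rose from 6.76% ± 0.878 in control to 17.6% ± 1.07 in Ako-3 and was at 3.85% ± 0.103 in Mko-3. AKR1D1 took 1.52% ± 0.175 in control, 9.33% ± 0.658 in Ako-3 and 10.0% ± 0.722 in Mko-3. The summed FPKM of the family was 72.4 ± 5.27, 59.5 ± 2.11 and 45.6 ± 1.47 in control, Ako-3 and Mko-3, and these groups did not overlap. A share falls when another member rises, so it does not show on its own which member changed.

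**Figure D3:**
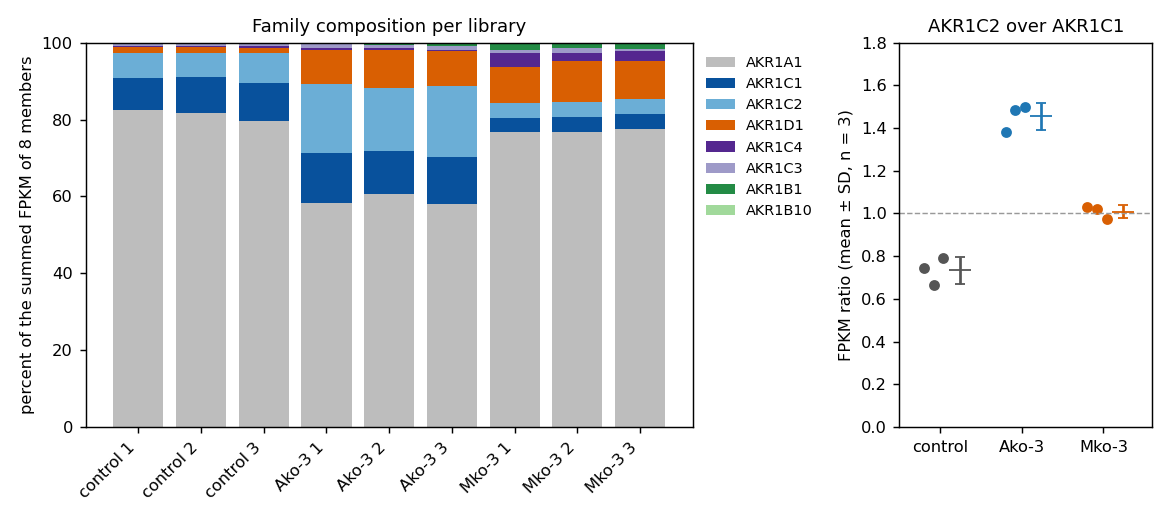
Left, percent of the summed FPKM of the 8 AKR1 members (vertical axis) taken by each member in each of 9 libraries, as stacked bars. Right, FPKM of AKR1C2 over that of AKR1C1 (vertical axis, from 0) with points for libraries and bars for the mean ± SD of 3 libraries. On the deposited gene lengths it is below 1 in every control library and above 1 in every Ako-3 library.

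The other genes of the pathways in which the AKR1 enzymes act were counted on lists written from general knowledge. Earlier results of these data were known when the lists were written, so their p-values also serve as a description. The medians of all tested genes were -0.01 in Ako-3, -0.01 in Mko-3 and 0.00 between the knockout lines. Of all tested genes, 3.52% were called higher and 5.00% lower in Ako-3 against control. These shares were 3.82% and 7.22% in Mko-3 against control, and 2.26% and 3.47% in Mko-3 against Ako-3. For bile acid synthesis, 10, 9 and 10 of 13 genes were tested in Ako-3 against control, Mko-3 against control and Mko-3 against Ako-3, in that order. In each of the 3 comparisons 0 were called higher and 1 lower, at median log2 fold changes of 0.13, -0.13 and -0.28. SLC27A5, which activates bile acids for conjugation, fell by 1.71 ± 0.30 on the log2 scale in Ako-3 and by 2.09 ± 0.32 in Mko-3 (adjusted p = 8.52e-05 and 1.15e-05, from the quasi-likelihood test of edgeR after Benjamini-Hochberg adjustment, as for all adjusted p-values given here). CYP7A1, the first enzyme of the classical pathway, had 0 counts in all 9 libraries, which allows up to 3 counts in each. CYP8B1, which sets the share of cholic acid, had 2 to 19 counts and was called lower in Mko-3 than in Ako-3 (-1.32 ± 0.54, adjusted p = 0.042) but not by DESeq2. CYP27A1, the enzyme of the alternative pathway, was at 0.21 ± 0.07 in Ako-3, -0.33 ± 0.07 in Mko-3 and -0.53 ± 0.05 between the knockout lines, and HSD3B7, which acts before AKR1D1, at 0.57 ± 0.11, 0.29 ± 0.12 and -0.27 ± 0.10. Neither was called.

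Of 32 genes of steroid hormone metabolism, 21, 22 and 21 were tested in the same order of comparisons. There were 1, 4 and 1 called higher and 1, 4 and 3 lower, with medians of 0.21, -0.07 and -0.09. HSD3B1, which makes progesterone and androstenedione, rose by 1.30 ± 0.14 in Ako-3 and 1.22 ± 0.14 in Mko-3 (adjusted p = 2.67e-07 and 2.51e-07). CYP19A1, the aromatase that makes estrogens, fell by 1.37 ± 0.14 in Mko-3 (adjusted p = 3.05e-08) and was at 0.23 ± 0.14 in Ako-3. HSD17B14 fell by 1.25 ± 0.10 in Mko-3 (adjusted p = 2.07e-09), whereas SRD5A3, which acts in dolichol synthesis, rose by 1.48 ± 0.13 (adjusted p = 6.81e-09) and STS, the steroid sulfatase, by 1.23 ± 0.13 (adjusted p = 9.08e-08). HSD17B13, a lipid droplet enzyme, was called lower in Ako-3 (-2.25 ± 0.55, adjusted p = 0.00205) and in Mko-3 (-1.13 ± 0.47, adjusted p = 0.0492), on 23 counts or fewer per library, and it passed the filter on low counts only through the control libraries. DESeq2 did not call it in Mko-3 (adjusted p = 0.114). Of the sulfotransferases, SULT2A1 was lower in Mko-3 than in Ako-3 by -1.17 ± 0.13 (adjusted p = 4.82e-12) and SULT1E1 by -1.06 ± 0.16 (adjusted p = 3.65e-08). UGT2B15, which conjugates androgens, had 0, 3 and 1 counts in control, 12, 9 and 6 in Ako-3 and 27, 31 and 24 in Mko-3 libraries, and was called higher in Mko-3 than in Ako-3 (1.66 ± 0.38, adjusted p = 0.000227), passing the filter on low counts only through Mko-3. SRD5A1, the reductase that makes the AKR1C2 substrate dihydrotestosterone, was not called, at 0.21 ± 0.09, 0.08 ± 0.09 and -0.13 ± 0.07.

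Around AKR1A1 and AKR1B1, the list of the polyol and fructose pathway had 7 of 8 genes tested in each comparison and 0 called in either direction, with medians of -0.07, -0.46 and -0.39. By the adjusted p alone, and likewise at an unadjusted p under 0.05, 3, 6 and 4 of its genes passed. Of all tested genes, 49.9%, 54.0% and 41.6% passed by the adjusted p and 55.5%, 59.1% and 48.2% by the unadjusted p. SORD, which turns the sorbitol made by AKR1B1 into fructose, was at 0.43 ± 0.07 in Ako-3 and -0.22 ± 0.06 in Mko-3. The 18 aldehyde dehydrogenases, of which 16 were tested, had 1, 1 and 0 called higher and 1, 2 and 2 lower, at medians of 0.20, -0.16 and -0.35. ALDH8A1 rose by 2.58 ± 0.14 in Ako-3 and 1.76 ± 0.15 in Mko-3 (adjusted p = 1.45e-11 and 5.56e-09). ALDH1L2, of mitochondrial folate metabolism, fell by 1.15 ± 0.21 and 1.86 ± 0.21 (adjusted p = 0.000259 and 3.08e-07). ALDH6A1, of valine breakdown, fell by 1.44 ± 0.07 in Mko-3 (adjusted p = 8.95e-13) and was at -0.07 ± 0.06 in Ako-3. ALDH3A1 was lower in Mko-3 than in Ako-3 (-1.32 ± 0.31, adjusted p = 0.00037). Among 11 tested of 14 carbonyl and retinal reductases of other families, 0 were called higher in any comparison and 0, 1 and 1 lower, at medians of -0.20, -0.03 and -0.20, and the lower one was RDH16 (-1.76 ± 0.36 in Mko-3 against control, adjusted p = 0.000293), which passed the filter on low counts only through the control libraries.

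Prostaglandin synthesis, in which AKR1C3 takes part, had 7, 8 and 8 of 12 genes tested, 0, 1 and 1 called higher and 0, 2 and 1 lower, at medians of 0.10, 0.03 and -0.09. In Mko-3 against control HPGD, which breaks prostaglandins down, fell by 1.18 ± 0.09 (adjusted p = 9.44e-10), PTGIS, which makes prostacyclin, fell by 1.09 ± 0.11 (adjusted p = 3.29e-08), and PTGS1, a cyclooxygenase, was called higher (1.35 ± 0.38, adjusted p = 0.00478). PTGS1 had 7 to 12 counts per library in control and 20 to 27 in Mko-3 and passed the filter on low counts only through Mko-3. All 18 targets of NRF2 outside the family were tested, with 0 called higher and 2, 1 and 0 lower, at medians of -0.19, -0.11 and 0.07. SLC7A11, the cystine transporter, fell by 2.19 ± 0.08 in Ako-3 and by 2.19 ± 0.12 in Mko-3 (adjusted p = 7.42e-14 and 1.19e-09), and OSGIN1 fell by 1.11 ± 0.09 in Ako-3 (adjusted p = 4.97e-09). NFE2L2, which encodes NRF2, was at -0.04 ± 0.06 in both knockout lines. The 4 osmotic stress targets of NFAT5 and the 11 regulators were all tested and none was called in the 3 comparisons, at medians of 0.06, 0.06 and -0.12 for the targets and -0.16, -0.26 and -0.10 for the regulators. An unadjusted p under 0.05 was found for 2, 1 and 2 of the targets and for 7, 9 and 6 of the regulators, beside 55.5%, 59.1% and 48.2% of all genes tested. NFAT5, the osmotic stress factor that acts on AKR1B1, was at -0.86 ± 0.11 in Ako-3 and -0.57 ± 0.10 in Mko-3, both under the fold of a call.

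Of 9 other aldo-keto reductases in the tables, 3, 4 and 4 were tested and 0 were called in any comparison, at medians of -0.05, 0.06 and 0.18. An unadjusted p under 0.05 was found for 2, 0 and 2 of them, beside 55.5%, 59.1% and 48.2% of all genes tested. DESeq2 also called 0 genes of this list, of the polyol and fructose pathway, of the NFAT5 targets and of the regulators in each comparison. AKR1E2 had at most 3 counts and AKR1B15 had 0 counts in all 9 libraries. None of the 13 AKR1 pseudogenes passed the filter on low counts.

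**Figure D4:**
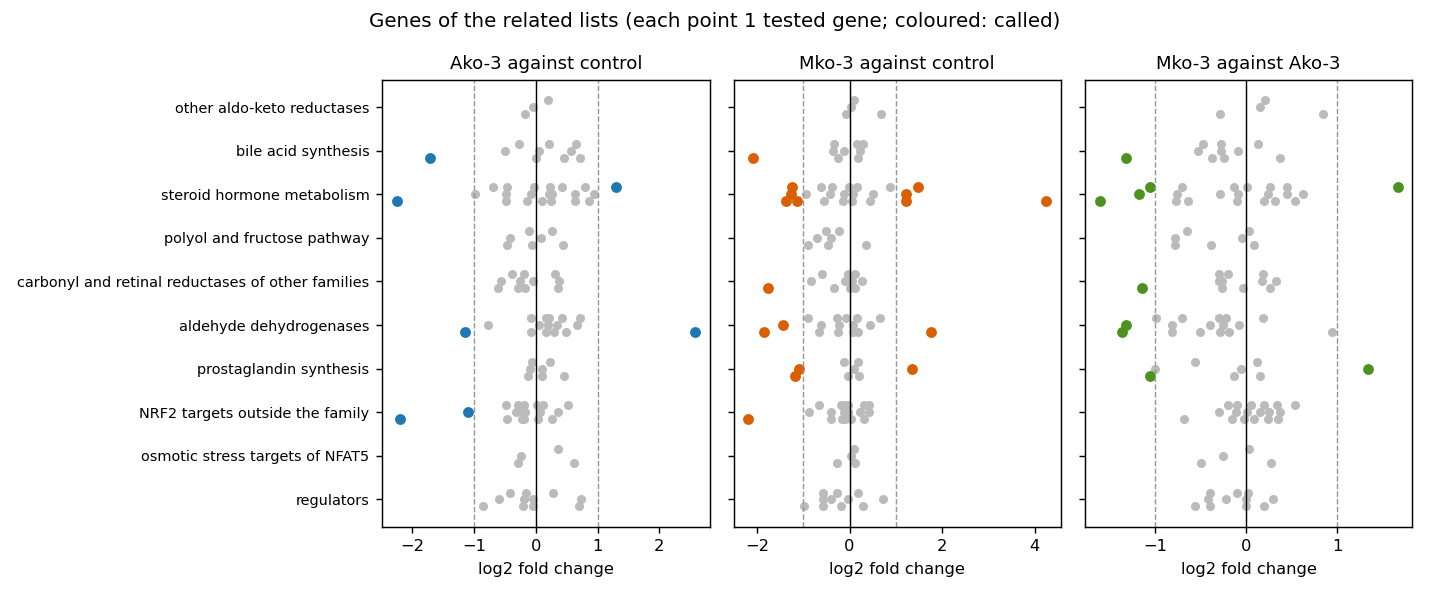
Log2 fold change (horizontal axis) of each tested gene of 10 related lists (vertical axis) in the 3 comparisons, with called genes coloured, other genes grey and dashed lines at -1 and 1. Points within a list are offset so that they can be told apart. The point farthest right in the middle panel is UGT2B15, whose position depends on the fit because its control libraries had at most 3 counts.

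The tested genes within 500 kb of the 4 loci, up to 5 on each side, were looked up to see whether the members moved with their neighbours. The share of all tested genes called in any comparison was not counted, so no excess is read from the counts of neighbours. In single comparisons, in the order used above, 3.52%, 3.82% and 2.26% of all tested genes were called higher and 5.00%, 7.22% and 3.47% lower. For the AKR1C genes 5 such neighbours lay on one side and 0 on the other, and 2 of them were called in any comparison. TUBAL3, a tubulin gene, lies 174 kb beyond AKR1C4 and further from AKR1C2. It had 2.15, 1.06 and 2.06 CPM in control, 6.24, 5.30 and 3.77 in Ako-3, and 1.81, 1.89 and 1.83 in Mko-3 libraries. It rose by 1.504 ± 0.26 in Ako-3 (adjusted p = 6.14e-05) and was at 0.04 in Mko-3 against control, so it was high where AKR1C2 was high but not low where AKR1C2 was low. AL365356.4, 390 kb beyond AKR1C4, was called lower in Mko-3 than in Ako-3 (-1.12), on 24 or fewer counts per library, but not by DESeq2 (adjusted p = 0.0683). Of 6 neighbours of AKR1B1 and AKR1B10, 1 was called, AC009275.1 in Ako-3 against control (1.91 ± 0.60, adjusted p = 0.0119), where control had 0 to 5 counts per library and Ako-3, through which alone it passed the filter, had 12 to 15. Of 10 neighbours of AKR1A1, 3 were called. TOE1 rose by 1.02 ± 0.13 in Ako-3 and 1.47 in Mko-3, NASP, a histone chaperone, rose by 1.20 in Mko-3, and CCDC17 fell by 1.44 in Mko-3, while AKR1A1 was lower in both knockout lines. Of 5 neighbours of AKR1D1, 0 were called in any comparison, and CREB3L2 was at 0.20 ± 0.07 in Ako-3 and 0.24 in Mko-3. By coordinate, the near end of CREB3L2 lies 257 bases before the deposited entry of AKR1D1, which begins at 138002324. The AKR1D1 window shown above begins further on, at 138076209, so CREB3L2 does not adjoin that window.

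The members with the widest range of group means of log2 CPM were AKR1C2 (2.57), AKR1D1 (2.31) and AKR1B1 (2.16). Among 9829 genes with a mean of at least 10 CPM, those whose log2 CPM followed each member most closely over the 9 libraries are given as a description. The libraries fall into 3 groups, so such a correlation mostly reflects the order and spacing of the group means. For AKR1C2 these were HPR (Pearson's r = 0.995), a haptoglobin-related gene, CYP27A1 (0.993) and FGA (0.993), a fibrinogen chain. HPR had 9.78 ± 1.20 CPM (SD, n = 3) in control, 19.3 ± 0.881 in Ako-3 and 3.96 ± 0.256 in Mko-3. CYP27A1 had 78.0, 90.6 and 62.7 CPM and FGA 248, 328 and 184 (means in the same order), smaller folds than in AKR1C2. For AKR1D1 these were HHEX (0.997), a homeobox factor of liver development, SCGN (0.995) and ERH (0.995). HHEX had 67.6 ± 2.54 CPM in control, 135 ± 6.73 in Ako-3 and 120.1 ± 5.88 in Mko-3. SCGN had 45.3, 121 and 104 CPM and ERH 75.0, 100.6 and 98.0 (means in the same order). All these folds were smaller than in AKR1D1. For AKR1B1 these were NDUFB2 (0.991) and NDUFS5 (0.977), both of respiratory complex I, and SAP30L (0.973), each with a far smaller range than AKR1B1 itself.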

How the data were processed

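RNA sequencing of 3 groups of 3 libraries was analysed. The authors had paired reads of 150 bases aligned to hg38 with HISAT2 2.0.5 and counted per gene with featureCounts 1.5.0-p3 (submitters' processing notes and methods). The notes also list hg19, but 99.91% of the 58207 gene identifiers found in GENCODE 44 overlap their hg38 position. Strand and multiple-match settings are not given in the sources used here. The authors deposited raw counts per gene, not normalized, and FPKM, which equal the counts divided by the deposited gene length and 1 scale per library. The files hold 0 further columns of samples. The members and all lists were chosen with earlier results of these data known.

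Groups were taken from the labels. Each comparison was fitted on its 6 libraries with edgeR 4.0.16 in R 4.3.3 (TMM, filterByExpr at a minimum count of 10, robust glmQLFit and glmQLFTest), with Benjamini-Hochberg adjustment over all genes tested. Calls needed a log2 difference of 1 or more in either direction and an adjusted p of 0.05 or less. These thresholds are those of the study, which names DESeq2, used here as an alternative (1.42.0). The SE is the log2 fold change divided by the square root of F. The fit was first tested on simulated data, with changes placed only in genes of high counts. That test does not cover members and list genes with few counts. Totals of 14638727 to 20179760 counts per library leave genes near 10 counts with wide errors, and p-values measure the spread between libraries of 1 line. Chi-square per gene between libraries of a group was 6.93 to 8.88 in control and 2.43 to 3.45 in the knockout lines, so no library was a copy of another.

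Named genes were APOB, MTTP, all 8 members, up to 4 called genes of each list and comparison with the smallest adjusted p, 10 further genes next to a member's step (SORD, SRD5A1, CYP7A1, CYP8B1, CYP27A1, HSD3B7, NFE2L2, NFAT5, AKR1E2 and AKR1B15), called neighbours, and the 3 genes most like each of 3 members. CREB3L2 was added for its distance to AKR1D1. The list symbol AKR1CL1 matched no gene. Alternatives were DESeq2, its size factors in edgeR, no filter, at least 10 counts in every library, a replicate block, 1 fit over 9 libraries, each library left out, adjusted p alone and, for shares, TMM counts per kilobase.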

Additional observations from a re-analysis of the deposited data

Results flagged for a closer look

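Among the AKR1 members, 4 were called between the knockout lines Mko-3 and Ako-3 in a direct fit of the 6 libraries, with a log2 difference of 1 or more. AKR1D1 (-0.30) passed the adjusted p but not that fold. AKR1C4 passed the filter on low counts only through Mko-3, and the call of AKR1B1 was lost without Ako-3 replicate 1 (0.74) or Mko-3 replicate 1 (0.94). The log2 fold change of Mko-3 against Ako-3 was -2.05 for AKR1C1, -2.58 for AKR1C2, 2.14 for AKR1C4 and 1.01 for AKR1B1. AKR1C2 was the member called in opposite directions against control, higher in Ako-3 and lower in Mko-3, with no overlap between the 3 groups. AKR1C4 rose in the line in which its neighbours AKR1C1 and AKR1C2 fell. These differences were known when the members were chosen, each knockout stands for 1 line of cells, and groups of 3 libraries are too small for a test of single outlying libraries.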

How the results depend on the processing

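The number of genes called was 1345 in Ako-3 against control, 1739 in Mko-3 against control and 890 between the knockout lines. A minimum of 10 counts in every library, which tests fewer genes, gave 841, 1113 and 511, and the adjusted p alone gave 7880, 8509 and 6462. With that minimum, 3 instead of 5 members were called in Mko-3 against control, as AKR1B1 and AKR1C4 were no longer tested. AKR1B1 in Ako-3 against control and AKR1C4 in Mko-3 against Ako-3 also went untested, so these calls were lost too. Leaving out 1 library gave 1254 to 1637, 1623 to 2106 and 895 to 964 genes and 2 to 3, 5 and 3 to 4 members. The members lost were AKR1B1, or AKR1C2 in Ako-3 without control replicate 2. The sum of AKR1C1 to AKR1C4 kept its direction and side of the threshold in 36 of 36 alternatives. Of 236 alternative values of single members, 226 kept both, 6 lost a call and 4 changed sign, all 4 of differences near 0. These were AKR1C3 in Mko-3 against control, at 0.0019 without control replicate 3 and 0.0604 without Mko-3 replicate 3 (-0.2709 to 0.0604 over 6 left-out libraries), and AKR1A1 between the knockout lines, at 0.0354 without Ako-3 replicate 2 and 0.0149 without Mko-3 replicate 2 (-0.0461 to 0.0354 over 6). The family shares from TMM counts per kilobase were the same by construction, as the scale of a library cancels within a share. Other gene lengths were not tried for them.

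Replicate numbers did not pair the libraries, as the deviations of same-numbered libraries correlated at only -0.07 to 0.06. With a replicate block 1336, 1730 and 899 genes and 3, 5 and 4 members were called, and the summed AKR1C genes were at 0.53, -1.59 and -2.11.

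Depth limits AKR1B10, AKR1B1, AKR1C4 and AKR1C3, which rest on few counts, and shared sequence limits the split between AKR1C1 and AKR1C2.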
